A study of Mus musculus with 16 samples.

Results

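Heat shock proteins are chaperones, proteins that keep other proteins folded, and the DnaJ proteins (J proteins) are the helpers that hand clients to the Hsp70 chaperones and start their ATP cycle. Cytosolic forms such as Hspa1a, Hspa1b, Hsph1 and Dnajb1 are classic targets of heat shock factor 1, which is switched on when unfolded protein gathers in the cytosol. Forms of the endoplasmic reticulum (ER) such as Hspa5 (BiP), Hsp90b1 (Grp94) and Dnajb11 serve secreted and membrane proteins and belong to the unfolded protein response, while Hspd1, Hspe1 and Hspa9 fold proteins in mitochondria.

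The genes described here are all those whose symbol begins with Hsp or Dnaj followed by a family letter or number of these chaperones, 62 of the 12393 genes with a probe set of 1 gene symbol. Each gene is represented by its brightest probe set, judged on the mean of the 16 arrays. By textbook location, 37 belong to the cytosol and nucleus, 10 to the ER, 7 to mitochondria and 8 to another place or to no chaperone family. The last include Hspb11, a part of the transport machinery of cilia, and Hspg2, which encodes the matrix proteoglycan perlecan. The places are therefore given separately. Hsp90ab1 and Hspa13 were not analysed here.

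Total RNA from left lungs was hybridised to 16 Affymetrix arrays, 1 mouse per array. The mice were genetically deficient in adiponectin, a hormone of fat cells, or wildtype, both with C57BL/6 given as background strain and a mean age of 14 weeks, and breathed 0.3 ppm ozone, an oxidant pollutant, or room air for 72 h. The groups were deficient mice in ozone, deficient mice in air, wildtype mice in ozone and wildtype mice in air, with 4 mice each. Each group held 2 males (M1, M2) and 2 females (F1, F2), and values per array are given in the order M1, M2, F1, F2. The free description of wildtype ozone F1 names room air, against its title, source and exposure fields, and it was kept in the wildtype ozone group. On the first principal component of all genes this array lay at 17.58. Ozone arrays of both genotypes lay between 12.81 and 24.76, against -20.77 to -15.86 for the air arrays. Labels do not say whether the deficient mice lack adiponectin in all cells or whether littermates served as controls. Values are log2 intensities, and differences are log2 fold changes ± SE of a limma fit over all arrays. A gene was called at a limma p under 0.05 after Benjamini-Hochberg adjustment over the 12393 genes.

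Array medians lay between 146 and 154 intensity units, and the means of 7 lung markers lay between 13.2 and 13.5 on all arrays. Adipoq, the gene of adiponectin, had a mean of 6.68 ± 0.90 in deficient mice and 8.48 ± 1.35 in wildtype mice (SD, n = 8 each, two-sided exact permutation p = 0.0042), with overlap, and the labels do not say whether its probes lie in the deleted part. The highest deficient value, 8.82, stood on deficient air F2. Some arrays carried markers of other tissues or cells: the mean of 5 fat markers was 8.96 on wildtype air F1 and 8.85 on deficient air F2, against at most 6.97 elsewhere. On deficient air M2 the mean of 6 skeletal muscle markers was 10.1 and that of 5 squamous epithelium markers 10.9, against at most 5.75 and 6.44 on any other array. Counts are therefore also given without these 3 air arrays. On wildtype ozone M2 the mean of 2 neutrophil markers, S100a8 and S100a9, was 14.0, against 9.28 to 11.6 on the other arrays.

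Ozone moved members in both directions. In deficient mice 11 of the 62 were called (17.7%), 6 higher and 5 lower, against 30.3% of all genes (15.8% higher and 14.6% lower). In wildtype mice 16 were called (25.8%), 9 higher and 7 lower, against 36.7% of all genes (19.6% higher and 17.1% lower). These shares came closest in deficient mice without deficient air M2 (29.0% of members and 29.9% of all genes), and their order turned in wildtype mice without the 3 arrays and deficient ozone F2 (37.1% of members and 36.0% of all genes). The median difference of the members was 0.06 in deficient and 0.07 in wildtype mice, beside 0.01 and 0.03 over all genes. Without the 3 arrays the counts were 11 (7 higher, 4 lower) and 19 (12 higher, 7 lower). One array mattered for the deficient count: without deficient air M2 it was 18 (12 higher, 6 lower). Averaging all probe sets of a gene gave 7 higher and 5 lower in deficient mice (19.4%, against 30.8% of all genes). In wildtype mice it gave 14 higher and 5 lower (30.6%, against 38.2%). A common median for all arrays gave 5 higher and 5 lower in deficient mice (16.1%, against 30.3%). In wildtype mice it gave 14 higher and 5 lower (30.6%, against 38.8%). All genes shifted there too, from 2432 higher and 2114 lower to 3027 and 1785.

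In both genotypes 5 members were called higher, Dnajb11, Dnajc1, Dnajc17, Hspbp1 and Hspd1, and 4 were called lower, Dnajc3, Dnajc14, Dnajc28 and Dnajc30, all by their brightest probe sets. Of all genes 30.3% were called in deficient and 36.7% in wildtype mice. The share of all genes called in both is not given here, so the shared calls cannot be set against it. The ozone comparisons of the genotypes share no arrays, but are taken from the same fit. By the same brightest probe sets, Dnajc9 was called higher and Dnaja4 lower in deficient mice alone. In wildtype mice alone they gave Dnajb3, Dnajc2, Dnajc4 and Hspa8 as higher and Dnajb6, Dnajc10 and Hspb11 as lower. None of these differences between the genotypes passed its own test, as given with the genotype comparisons. In bulk lung, fewer cells of a type and less RNA per cell cannot be told apart.

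**Figure D1:**
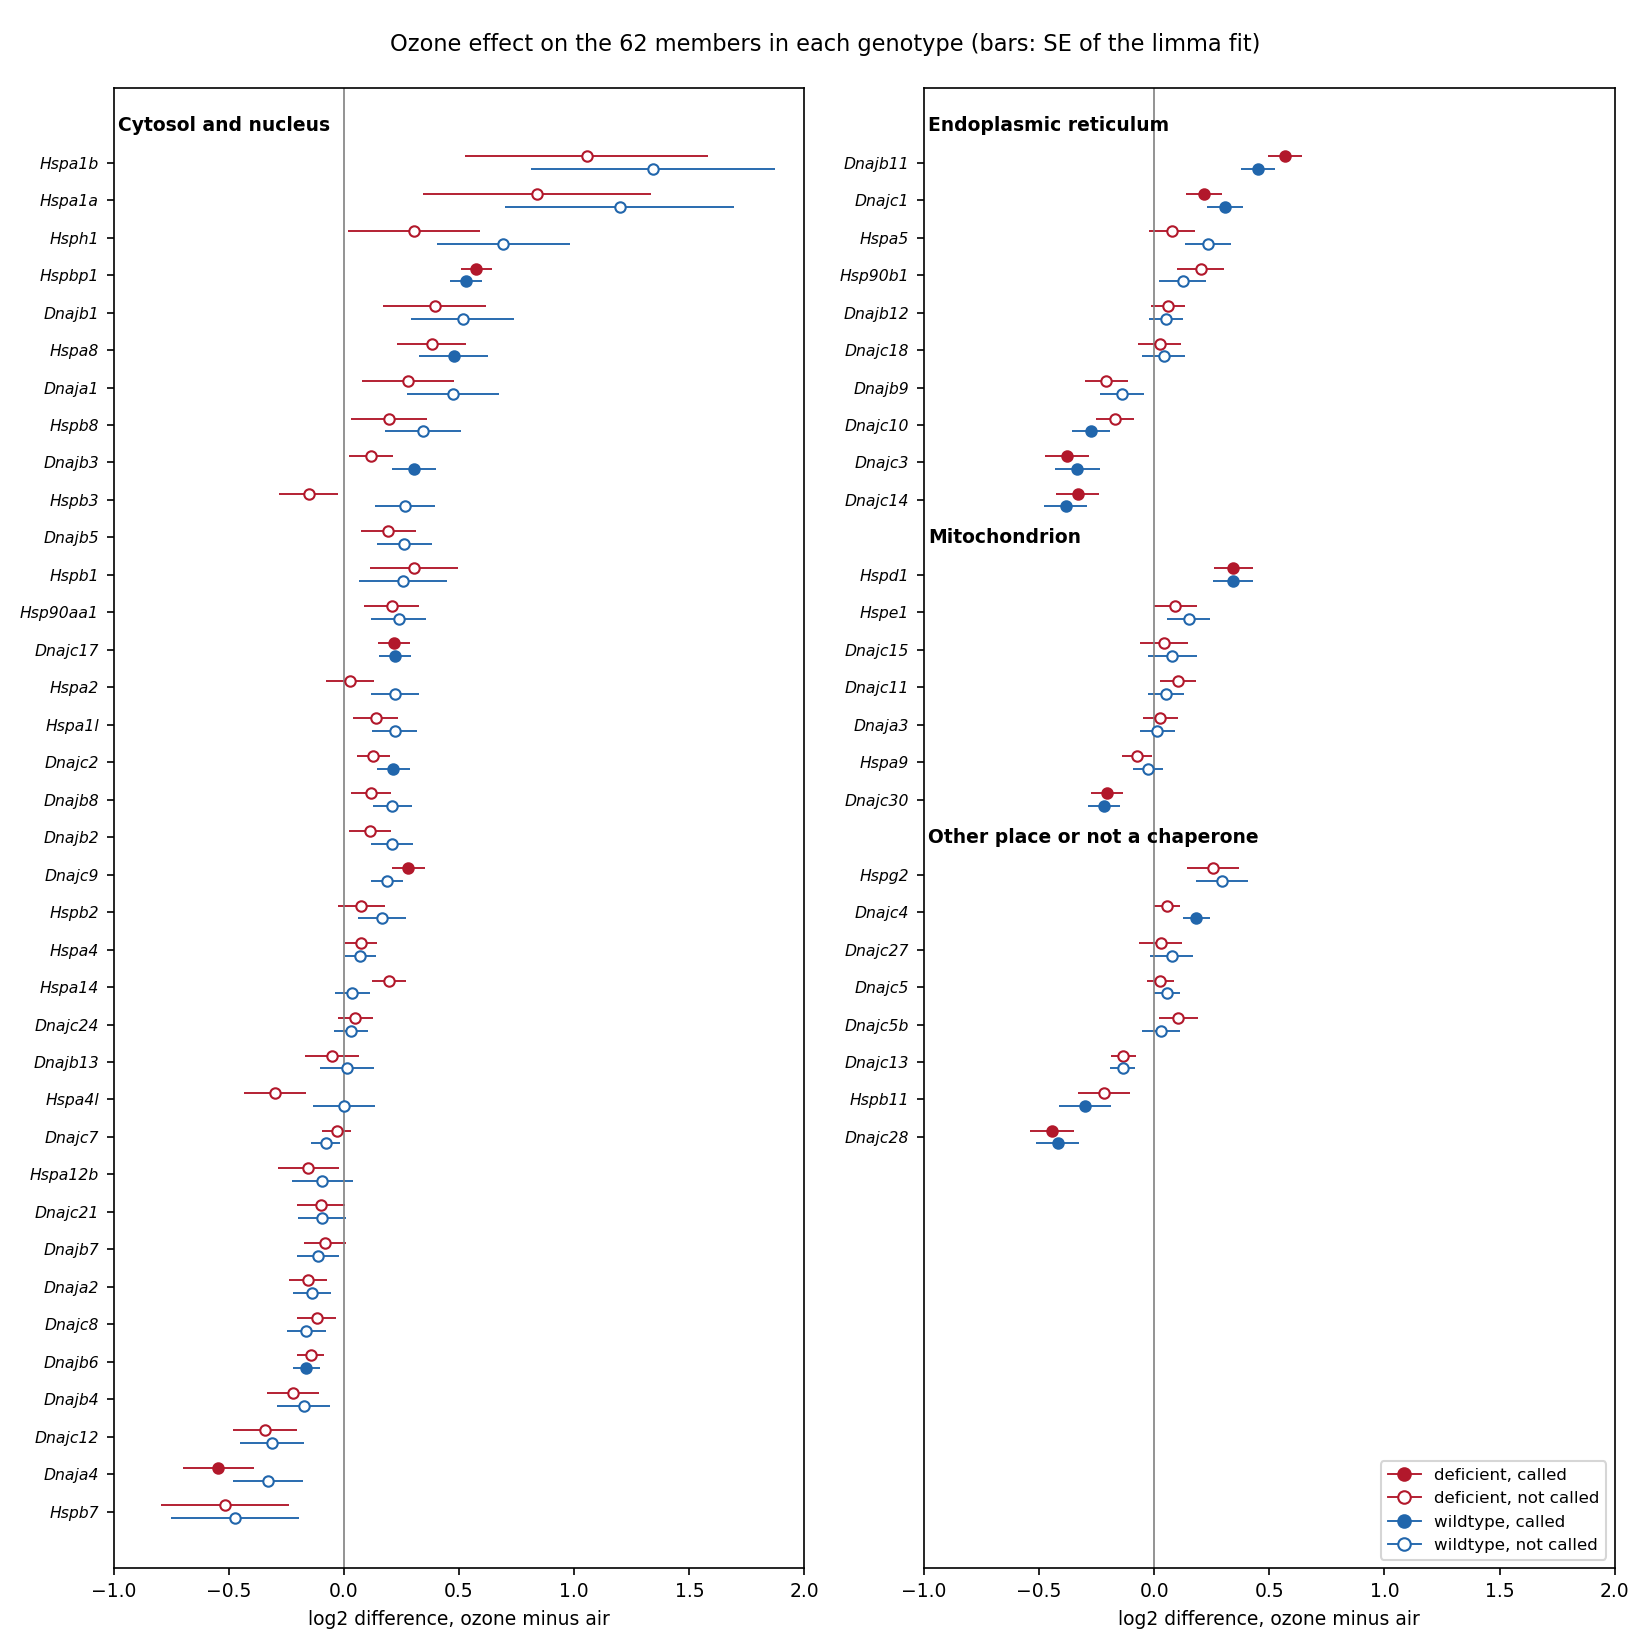
Log2 difference (ozone minus air, x axis) of each of the 62 members in deficient mice (red, upper point) and wildtype mice (blue, lower point), with bars for the SE of the limma fit, grouped by place in the cell. Filled points were called. Hspa1b and Hspa1a have the largest differences and the widest bars and are not called, while Hspbp1 and Dnajb11 have narrow bars and are called in both genotypes.

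Of the members called higher, Hspbp1 and Dnajb11 had the smallest adjusted p in both genotypes. Hspbp1, a nucleotide exchange factor that releases ADP and client from cytosolic Hsp70, was at 8.69, 8.99, 8.86 and 8.85 in deficient mice after ozone, against 8.21, 8.24, 8.27 and 8.38 after air. Hspbp1 in wildtype mice was at 8.94, 8.79, 8.81 and 8.86 after ozone, against 8.40, 8.26, 8.25 and 8.36 after air. Every ozone array stood above every air array. The difference was 0.58 ± 0.07 in deficient mice (adjusted p = 2.74e-05) and 0.53 ± 0.07 in wildtype mice (adjusted p = 5.69e-05), or 1.49-fold and 1.44-fold.

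Dnajb11, the ER-lumen J protein that brings unfolded clients to Hspa5, had 9.89, 9.97, 9.96 and 10.06 in deficient mice after ozone, against 9.31, 9.41, 9.41 and 9.48 after air. Wildtype mice had 9.88, 9.89, 10.11 and 10.02 after ozone, against 9.68, 9.53, 9.39 and 9.49 after air. The exposures did not overlap in either genotype. It was higher by 0.57 ± 0.07 in deficient mice (adjusted p = 4.60e-05) and by 0.45 ± 0.07 in wildtype mice (adjusted p = 0.000264).

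Hspa8, the constitutive cytosolic Hsp70 (Hsc70), had 12.74, 12.95, 13.05 and 13.14 in deficient mice after ozone, against 12.78, 12.86, 12.23 and 12.49 after air. Hspa8 in wildtype mice had 13.06, 12.93, 13.36 and 13.03 after ozone, against 12.89, 12.83, 12.32 and 12.45 after air. The wildtype exposures did not overlap and the deficient ones did, and in air both males stood above both females in each genotype. The difference was 0.38 ± 0.15 in deficient mice (adjusted p = 0.0671) and 0.48 ± 0.15 in wildtype mice (adjusted p = 0.0220). Leaving out wildtype air F1 ended the wildtype call (0.39, adjusted p = 0.0702), as did leaving out wildtype air F2 (0.43, adjusted p = 0.0592) or wildtype ozone F1 (0.36, adjusted p = 0.0781), or the 3 air arrays (0.38, adjusted p = 0.0738). A call in deficient mice appeared without deficient air M2 (0.46), wildtype ozone F1 (0.38) or deficient ozone M1 (0.49). Tested on their own, the 4 probe sets of Hspa8 ran from 0.31 to 0.49 in deficient mice, with 1 called higher. They ran from 0.22 to 0.61 in wildtype mice, with 2 called higher.

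The inducible Hsp70 genes Hspa1a and Hspa1b showed the largest differences and the largest scatter of the 62 members. Hspa1b, one of the pair of near-identical inducible Hsp70 genes, had 9.62, 10.25, 9.52 and 11.24 in deficient mice after ozone, against 9.31, 10.59, 7.92 and 8.60 after air. Wildtype mice had 11.04, 9.40, 11.25 and 9.59 after ozone, against 9.09, 9.25, 8.57 and 8.99 after air. All wildtype ozone arrays stood above the wildtype air arrays, but M2 and F2 by little, and in deficient mice the air array M2 stood above 3 of the 4 ozone arrays. The difference was 1.05 ± 0.53 in deficient mice (adjusted p = 0.151) and 1.34 ± 0.53 in wildtype mice (adjusted p = 0.0591), neither called.

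Hspa1a, the other gene of the pair, had 8.04, 8.27, 7.73 and 9.63 in deficient mice after ozone, against 7.58, 8.74, 6.86 and 7.12 after air. Hspa1a in wildtype mice had 9.41, 7.82, 9.52 and 7.63 after ozone, against 7.60, 7.52, 6.92 and 7.55 after air. Its high arrays were those of Hspa1b: wildtype ozone M1 and F1, deficient ozone F2 and deficient air M2. The difference was 0.84 ± 0.50 in deficient mice (adjusted p = 0.226) and 1.20 ± 0.50 in wildtype mice (adjusted p = 0.0715). Hspa1a and Hspa1b lie on mouse chromosome 17 (chr17:34969359-34972156 and chr17:34956429-34959238, GRCm38.p6), and because their transcripts are near copies their probe sets may not tell them apart.

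Hsph1 (Hsp110), an exchange factor for Hsp70 that also holds unfolded clients, had 8.92, 9.66, 9.71 and 10.04 in deficient mice after ozone, against 9.50, 9.63, 9.14 and 8.84 after air. Wildtype mice had 10.30, 9.35, 10.69 and 9.71 after ozone, against 9.50, 9.60, 8.91 and 9.28 after air. Wildtype ozone M1 and F1 and deficient ozone F2 stood high, and the exposures overlapped in both genotypes. The difference was 0.30 ± 0.29 in deficient mice (adjusted p = 0.466) and 0.69 ± 0.29 in wildtype mice (adjusted p = 0.0717).

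Dnajb1 (Hsp40), the J protein partner of the inducible Hsp70s, had 10.08, 10.41, 10.28 and 10.79 in deficient mice after ozone, against 10.16, 10.45, 9.65 and 9.73 after air. Dnajb1 in wildtype mice had 11.02, 10.05, 10.61 and 10.05 after ozone, against 10.22, 9.97, 9.51 and 9.96 after air. Dnaja1, a farnesylated cytosolic J protein, had 11.05, 11.56, 11.28 and 11.63 in deficient mice after ozone, against 11.32, 11.30, 10.78 and 11.01 after air. For both genes the exposures overlapped in each genotype. Dnaja1 had 11.77, 11.30, 12.09 and 11.22 in wildtype mice after ozone, against 11.41, 11.30, 10.69 and 11.08 after air. Dnajb1 differed by 0.39 ± 0.22 in deficient mice (adjusted p = 0.203) and 0.52 ± 0.22 in wildtype mice (adjusted p = 0.0828), and Dnaja1 by 0.28 ± 0.20 (adjusted p = 0.322) and 0.47 ± 0.20 (adjusted p = 0.0764).

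Hsp90aa1, the inducible cytosolic Hsp90, had 11.96, 12.09, 12.22 and 12.35 in deficient mice after ozone, against 12.07, 12.02, 11.77 and 11.92 after air. Hsp90aa1 in wildtype mice had 12.15, 12.08, 12.47 and 12.25 after ozone, against 11.89, 12.33, 11.86 and 11.92 after air. The exposures overlapped in both genotypes, in wildtype mice through air array M2. The differences were 0.21 ± 0.12 in deficient mice (adjusted p = 0.210) and 0.24 ± 0.12 in wildtype mice (adjusted p = 0.130), and the wildtype one was called without wildtype air M2 (0.36, adjusted p = 0.0170).

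Single arrays and the choice of probe sets decided these calls. With all probe sets of a gene averaged, Hspa1b and Hsph1 were called higher in wildtype mice. Hspa1b was also called there when only the arrays of the compared groups were fitted. In wildtype mice, Hspa1b (1.74), Hspa1a (1.53), Hsph1 (0.94), Dnajb1 (0.70) and Dnaja1 (0.61) were all called without wildtype ozone M2, with adjusted p between 0.0184 and 0.0338, and Hspa1a and Dnaja1 (0.58) also without wildtype ozone F2. Without deficient air M2, Hspa1b in deficient mice was at 1.53 (adjusted p = 0.0280). Leaving out an array of the other genotype also brought wildtype calls at an unchanged difference, since all arrays share 1 estimate of the spread: deficient air M2 or deficient ozone F2 for Hspa1a and Hspa1b, deficient air F1 for Hspa1b, and deficient ozone M1 for Hsph1. Wildtype ozone M2 was the array with high neutrophil markers (S100a9 at 14.31, against 9.12 to 9.21 on the other wildtype ozone arrays), and their part in its values was not tested.

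Other arrays held the differences up, and none of the following values was called. Without deficient ozone F2 the deficient differences were 0.59 for Hspa1b, 0.35 for Hspa1a, 0.13 for Hsph1, 0.21 for Dnajb1 and 0.16 for Dnaja1. Without deficient air F1 Hspa1b was at 0.69 in deficient mice, and without deficient air F2 Hsph1 was at 0.15. Without deficient ozone M1 the deficient values were larger, at 0.55 for Hsph1 and 0.43 for Dnaja1. Without wildtype ozone F1 the wildtype differences were 0.45 for Hsph1, 0.26 for Dnaja1, 0.16 for Hsp90aa1 and 0.14 for Hspb1, and without wildtype ozone M1 Dnajb1 was at 0.34.

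**Figure D2:**
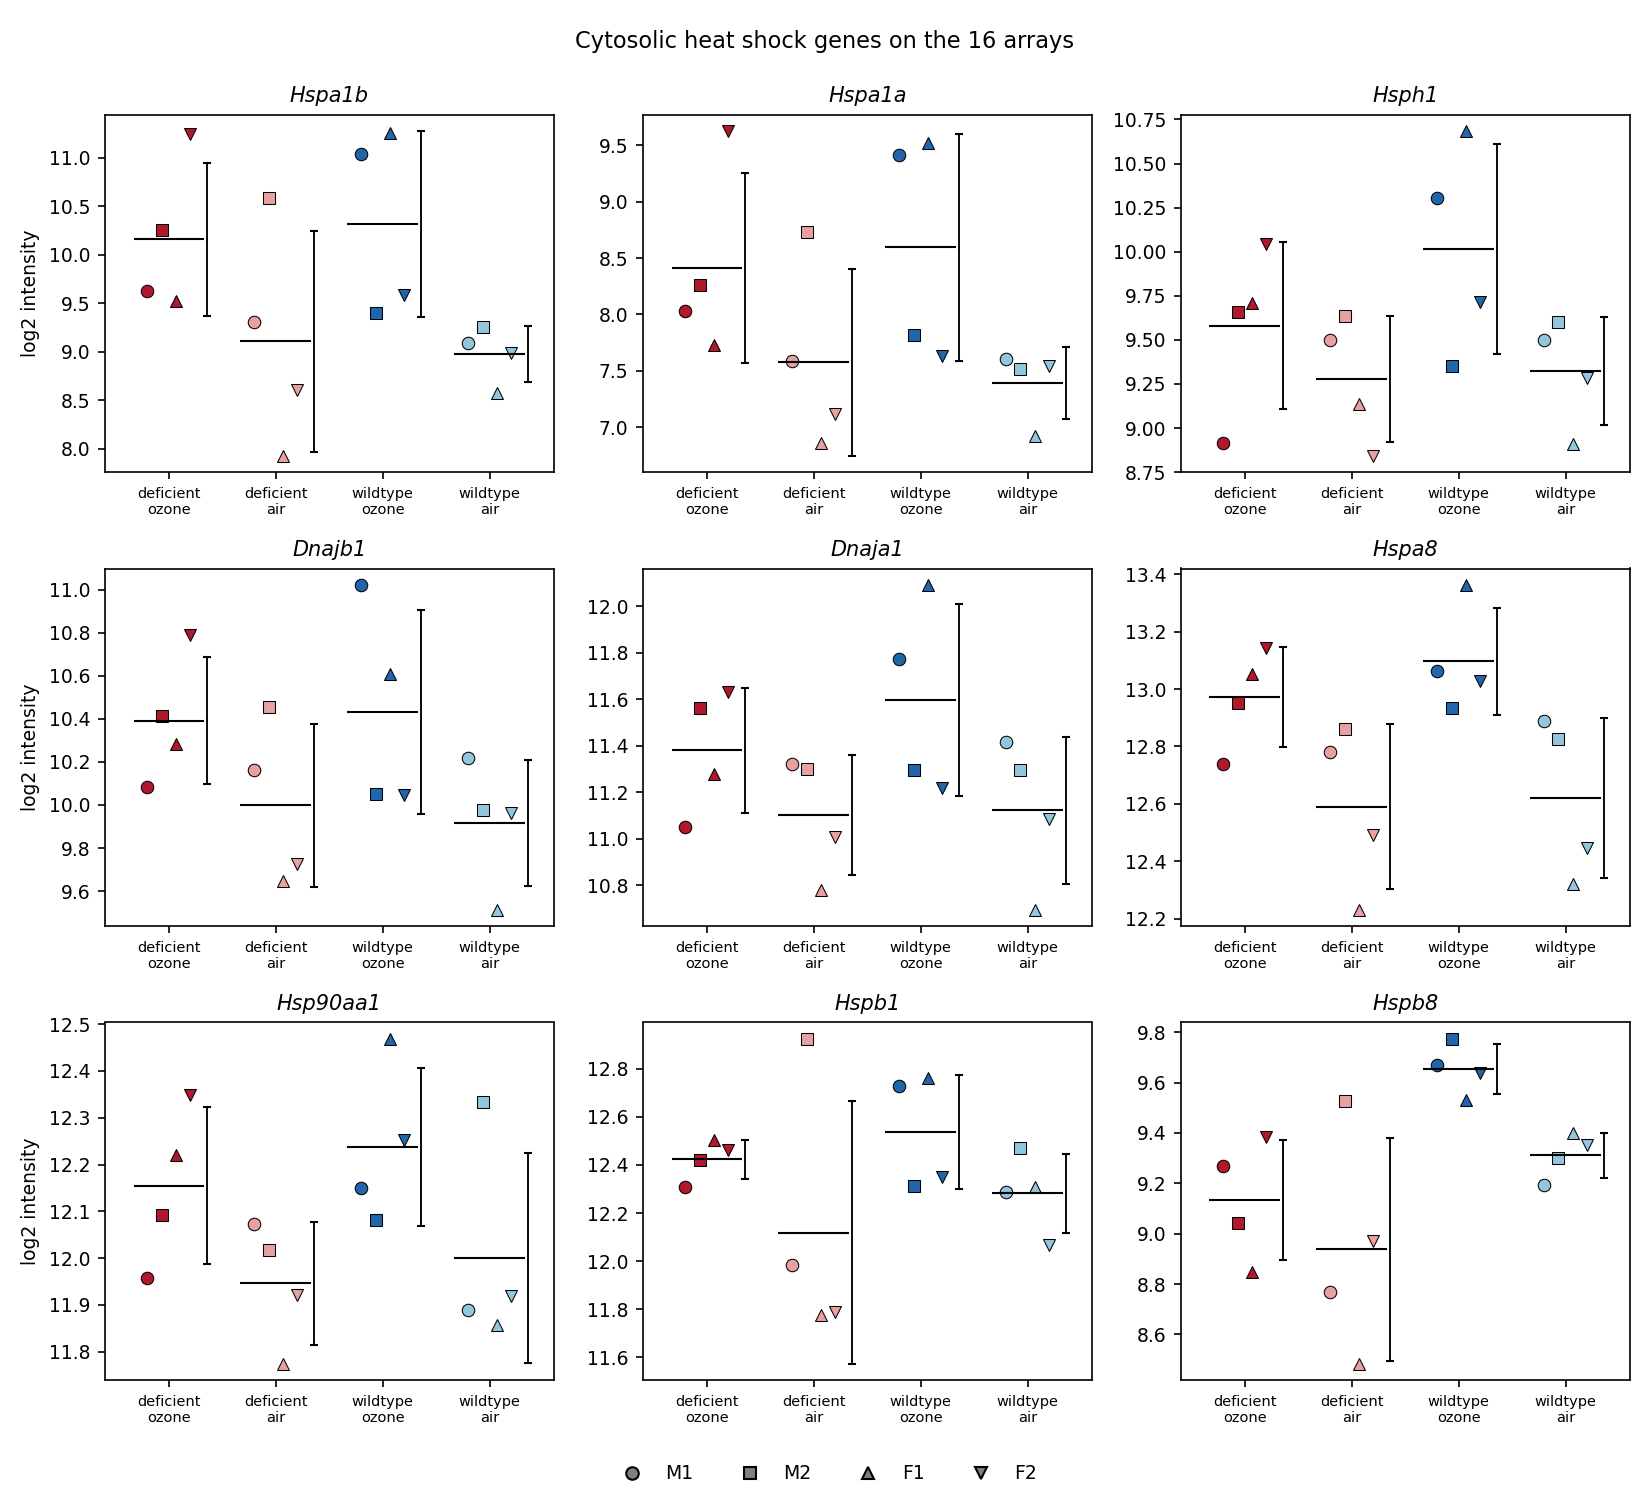
Log2 intensity (y axis) of 9 cytosolic members on each of the 16 arrays, by group from left to right, with markers for the mouse (M1, M2, F1, F2), a horizontal line at each group mean and a vertical bar of ± 1 SD (n = 4). Deficient ozone F2, wildtype ozone M1 and wildtype ozone F1 stand high for most genes, and deficient air M2 stands high within its group for Hspa1b, Hspa1a, Hspb1 and Hspb8.

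The same few arrays carried these genes. Of 9 cytosolic genes (Hspa1a, Hspa1b, Hspa8, Hsph1, Hsp90aa1, Dnaja1, Dnajb1, Hspb1 and Hspb8), wildtype ozone F1 was among the 3 highest arrays for 8, wildtype ozone M1 for 8 and deficient ozone F2 for 7. No other array was among the 3 highest for more than 1 of them. Their mean was 11.2 on deficient ozone F2, 11.4 on wildtype ozone F1 and 11.2 on wildtype ozone M1, against 10.4 to 10.7 on the other ozone arrays and 9.85 to 10.9 on the air arrays. Within groups, the SD was 0.86 for Hspa1b, 0.79 for Hspa1a, 0.45 for Hsph1, 0.44 for Hspb7 and 0.37 for Dnajb1, against a median of 0.15 over the members and 0.12 over all genes. The highest air mean, 10.9, was that of deficient air M2, the array with skeletal muscle and squamous markers. The part of those markers in the values of that array was not tested, and no batch is named in the labels.

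Small heat shock proteins hold unfolding proteins without using ATP. By their brightest probe sets, 0 of 5 were called in either genotype by limma (0 at an unadjusted p under 0.05 as well). Of all genes 30.3% were called in deficient and 36.7% in wildtype mice. Other probe sets of Hspb7 and Hspb8 were called, as given with the probe sets. Hspb1 (Hsp25) had 12.31, 12.42, 12.50 and 12.46 in deficient mice after ozone, against 11.98, 12.93, 11.78 and 11.79 after air. Hspb1 in wildtype mice had 12.73, 12.31, 12.76 and 12.35 after ozone, against 12.29, 12.47, 12.31 and 12.07 after air. Deficient air M2, the array with muscle and squamous markers, was the highest of all 16 for Hspb1, and the part of those tissues was not tested. The differences were 0.30 ± 0.19 (adjusted p = 0.256) in deficient mice and 0.26 ± 0.19 (adjusted p = 0.317) in wildtype mice, and without deficient air M2 the first was 0.57 (adjusted p = 0.00244).

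Hspb8, a small heat shock protein that works with Bag3 in autophagy of misfolded protein, had 9.27, 9.04, 8.85 and 9.38 in deficient mice after ozone, against 8.77, 9.53, 8.48 and 8.97 after air. Hspb8 in wildtype mice had 9.67, 9.77, 9.53 and 9.64 after ozone, against 9.19, 9.30, 9.40 and 9.35 after air. Wildtype exposures did not overlap, and every deficient ozone array lay below every wildtype ozone array. The ozone difference was 0.20 ± 0.16 in deficient mice (adjusted p = 0.402) and 0.34 ± 0.16 in wildtype mice (adjusted p = 0.115). Without deficient air M2 both were called, at 0.39 (adjusted p = 0.0313) and 0.34 (adjusted p = 0.0324). Without deficient air F1 the deficient value was 0.05, without deficient air M1 0.11 and without deficient ozone F2 0.09, none called.

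Hspb3, mainly a muscle protein, differed in sign: it was at -0.15 ± 0.13 in deficient mice (adjusted p = 0.409) and 0.27 ± 0.13 in wildtype mice (adjusted p = 0.121). Its values were 5.27, 5.27, 5.20 and 5.53 in deficient mice after ozone, against 5.33, 5.93, 5.33 and 5.30 after air, and 5.65, 5.50, 5.33 and 5.44 in wildtype mice after ozone, against 5.12, 5.09, 5.22 and 5.42 after air. The high deficient air array was again M2. Without it the deficient value was 0.00, not called, so that the negative sign rests on that array, and the wildtype difference was called (0.27, adjusted p = 0.0313).

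Among the other cytosolic members, Dnajc9, a J protein that also binds histones, had 8.89, 8.99, 8.80 and 8.77 in deficient mice after ozone, against 8.67, 8.63, 8.51 and 8.54 after air. Dnajc9 in wildtype mice had 8.78, 8.59, 8.67 and 8.64 after ozone, against 8.39, 8.40, 8.63 and 8.52 after air. It was higher by 0.28 ± 0.07 in deficient mice, where the exposures did not overlap (adjusted p = 0.00756), and by 0.19 ± 0.07 in wildtype mice (adjusted p = 0.0506). That wildtype value was called without wildtype air F1, wildtype ozone M2 or deficient ozone M2 (0.19 to 0.25). On the same arrays 4 of 4 markers of dividing cells were called higher in each genotype, with medians of 2.79 in deficient and 2.53 in wildtype mice, and their part in the Dnajc9 result was not tested.

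Dnajc17, a nuclear J protein of RNA processing, had 6.25, 6.37, 6.34 and 6.36 in deficient mice after ozone, against 5.99, 6.11, 6.25 and 6.11 after air. Dnajc17 in wildtype mice had 6.27, 6.34, 6.32 and 6.25 after ozone, against 5.93, 5.92, 6.28 and 6.17 after air. The exposures met or overlapped in both genotypes, in each through air array F1. The differences were 0.22 ± 0.07 in both (adjusted p = 0.0258 and 0.0200). They fell short of the threshold without deficient air M1, deficient air F2 or deficient ozone M2 in deficient mice (0.18 to 0.20), and without wildtype air M1, air M2, ozone M1 or ozone M2 in wildtype mice (0.19 to 0.21).

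Dnaja4, a J protein described in mice as responsive to sterols, fell in deficient mice. It had 8.46, 8.89, 8.59 and 8.52 in deficient mice after ozone, against 9.27, 9.52, 8.92 and 8.94 after air, with no overlap. Dnaja4 in wildtype mice had 8.75, 8.49, 8.89 and 8.85 after ozone, against 9.01, 9.30, 8.68 and 9.29 after air. The difference was -0.54 ± 0.15 in deficient mice (adjusted p = 0.0138) and -0.33 ± 0.15 in wildtype mice (adjusted p = 0.104). Without wildtype air F1, the lowest wildtype air array, the wildtype value was -0.45 and called (adjusted p = 0.0343).

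Dnajb3, best known from testis, was dim, at 4.33, 4.33, 4.28 and 4.74 in deficient mice after ozone, against 4.31, 4.21, 4.52 and 4.17 after air. Dnajb3 in wildtype mice was at 4.50, 4.58, 4.39 and 4.51 after ozone, against 4.21, 4.07, 4.23 and 4.26 after air. Its differences were 0.12 ± 0.10 in deficient mice (adjusted p = 0.398) and 0.30 ± 0.10 in wildtype mice (adjusted p = 0.0231), the second lost without wildtype air M2, ozone M1 or ozone M2 (0.26 to 0.29). How far so dim a probe set stands above background is not known here. The brightest probe set of Dnajb6 fell by 0.16 ± 0.06 in wildtype mice. Its 4 probe sets, tested on their own, ran from -0.16 to 0.41 there and from -0.14 to 0.45 in deficient mice, with 0 called higher. Dnajc2, a ribosome-bound J protein, had its brightest probe set called higher in wildtype mice (0.21 ± 0.07) and another, tested on its own, called lower (-0.64 ± 0.15).

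In the ER, 4 of 10 members were called in deficient mice (2 higher, 2 lower) and 5 of 10 in wildtype mice (2 higher, 3 lower), against 30.3% and 36.7% of all genes. Beside Dnajb11, the member called higher was Dnajc1, an ER-membrane J protein that contacts ribosomes. Dnajc1 had 8.69, 8.78, 8.64 and 8.89 in deficient mice after ozone, against 8.62, 8.45, 8.64 and 8.42 after air. Dnajc1 in wildtype mice had 8.93, 8.80, 8.65 and 8.84 after ozone, against 8.52, 8.39, 8.50 and 8.58 after air. The deficient exposures overlapped at F1 and the wildtype ones did not. The differences were 0.22 ± 0.08 in deficient mice (adjusted p = 0.0478) and 0.31 ± 0.08 in wildtype mice (adjusted p = 0.00695). The deficient call was lost when any of 9 arrays was left out (0.17 to 0.24, adjusted p between 0.0553 and 0.161), namely wildtype air M1 and F1, deficient air M2 and F2, wildtype ozone M2 and F2, or deficient ozone M1, M2 and F2, and without the 3 air arrays (0.12, adjusted p = 0.407).

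Hspa5, the ER Hsp70 and the usual gauge of the unfolded protein response, had 11.85, 11.97, 12.24 and 12.26 in deficient mice after ozone, against 12.03, 11.90, 12.13 and 11.94 after air. Hspa5 in wildtype mice had 12.11, 11.99, 12.55 and 12.14 after ozone, against 12.07, 11.76, 11.92 and 12.10 after air. The exposures overlapped in both genotypes. The difference was 0.08 ± 0.10 in deficient mice (adjusted p = 0.595) and 0.23 ± 0.10 in wildtype mice (adjusted p = 0.0783), the second at 0.14 without wildtype ozone F1 but called without wildtype air M1 or wildtype ozone F2 (0.31 and 0.29), with a common median for all arrays (0.27, adjusted p = 0.0479) and with all its probe sets averaged (0.25, adjusted p = 0.0372).

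Hsp90b1, the ER Hsp90, had 11.69, 11.63, 11.90 and 11.94 in deficient mice after ozone, against 11.50, 11.48, 11.60 and 11.77 after air. Hsp90b1 in wildtype mice had 11.51, 11.43, 11.99 and 11.91 after ozone, against 11.51, 11.78, 11.63 and 11.42 after air. Overlap was present in both, and the differences were 0.20 ± 0.10 (adjusted p = 0.155) in deficient mice and 0.12 ± 0.10 (adjusted p = 0.366) in wildtype mice. Dnajb9, an ER J protein that keeps the sensor Ern1 quiet, had 10.59, 10.61, 10.43 and 10.38 in deficient mice after ozone, against 10.89, 10.64, 10.59 and 10.72 after air, a difference of -0.21 ± 0.10 (adjusted p = 0.117). In wildtype mice Dnajb9 had 10.46, 10.78, 10.83 and 10.49 after ozone, against 10.80, 10.98, 10.60 and 10.75 after air (-0.14 ± 0.10, adjusted p = 0.268).

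The ER members called lower were J proteins of class C. Dnajc3 (p58IPK), which restrains the translation-blocking kinase Eif2ak3 (PERK), had 9.85, 9.93, 10.01 and 9.91 in deficient mice after ozone, against 10.48, 10.09, 10.27 and 10.39 after air. Dnajc3 in wildtype mice had 9.83, 9.73, 10.18 and 10.04 after ozone, against 10.36, 10.35, 10.16 and 10.25 after air. The deficient exposures did not overlap, and in wildtype mice they crossed at F1. Dnajc3 fell by 0.38 ± 0.10 in deficient mice (adjusted p = 0.00777) and by 0.33 ± 0.10 in wildtype mice (adjusted p = 0.0143), the second lost without wildtype ozone M2 (-0.27, adjusted p = 0.0521).

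Dnajc14, an ER-membrane J protein involved in receptor export, had 8.45, 8.51, 8.46 and 8.61 in deficient mice after ozone, against 8.92, 8.79, 8.73 and 8.93 after air. Dnajc14 in wildtype mice had 8.11, 8.26, 8.39 and 8.65 after ozone, against 8.68, 8.86, 8.63 and 8.78 after air. This brightest probe set was called lower, at -0.33 ± 0.09 in deficient mice, without overlap (adjusted p = 0.0137), and at -0.38 ± 0.09 in wildtype mice (adjusted p = 0.00510). Tested on its own, another probe set of Dnajc14 was at 0.17 in deficient mice, not called, and called higher in wildtype mice (0.27, adjusted p = 0.00317). For the brightest, the deficient call was lost without the 3 air arrays (-0.31, adjusted p = 0.0709). Dnajc10 (ERdj5), a disulphide reductase that helps to clear misfolded proteins, had 9.43, 9.32, 9.41 and 9.16 in deficient mice after ozone, against 9.64, 9.38, 9.47 and 9.50 after air (-0.17 ± 0.08, adjusted p = 0.137). In wildtype mice Dnajc10 had 9.31, 9.22, 9.20 and 9.07 after ozone, against 9.56, 9.51, 9.23 and 9.59 after air (-0.27 ± 0.08, adjusted p = 0.0185), a call lost without wildtype air F2 or wildtype ozone F2 (-0.24 to -0.21). Tested on their own, 1 of the 3 probe sets of Dnajc10 was called higher in deficient mice (0.24), against its brightest. In wildtype mice its probe sets ran from -0.27 to 0.11, with 0 called higher. When all probe sets of a gene were averaged, Dnajc1, Dnajc3 and Dnajc14 were called in neither genotype and Dnajc10 lost its wildtype call.

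Other chaperones and folding enzymes of the ER were mostly higher after ozone. Of 17 such genes measured, 12 were called higher and 1 lower in deficient mice, and 13 higher and 1 lower in wildtype mice. Their median differences were 0.40 and 0.35, and 30.3% and 36.7% of all genes were called. Without the 3 air arrays the counts were 11 higher and 1 lower, and 12 higher and 1 lower. Sdf2l1, a partner of Dnajb11 in the ER lumen, had 8.03, 8.31, 8.46 and 8.47 in deficient mice after ozone, against 6.85, 7.06, 7.15 and 7.13 after air. Sdf2l1 in wildtype mice had 8.17, 7.98, 8.48 and 8.23 after ozone, against 7.24, 7.01, 6.98 and 6.84 after air. Ozone and air lay far apart, at 1.27 ± 0.11 in deficient mice (adjusted p = 1.42e-06) and 1.20 ± 0.11 in wildtype mice (adjusted p = 3.38e-06).

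Serpinh1 (Hsp47), the collagen chaperone, was higher by 0.98 in deficient and 0.83 in wildtype mice, and the disulphide isomerase Pdia6 by 0.55 and 0.61. Calr (calreticulin) was higher by 0.40 and 0.24 and Hyou1, an ER exchange factor of the Hsp110 family, by 0.31 and 0.27. The only one called lower was Ero1a, the oxidase that recharges disulphide isomerases, at -0.21 and -0.20. The 11 sensors and factors of the unfolded protein response were mixed. In deficient mice 2 were higher and 3 lower, and in wildtype mice 3 and 3, against 30.3% and 36.7% of all genes called. Edem1, which marks misfolded glycoproteins for removal, was higher by 0.57 and 0.67, and the transcription factor Atf4 by 0.27 and 0.33. The sensor Atf6 was lower, at -0.34 and -0.38, and Herpud1, of ER-associated degradation, at -0.44 and -0.25. Ddit3 (CHOP) was called in neither, at -0.20 and 0.00.

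**Figure D3:**
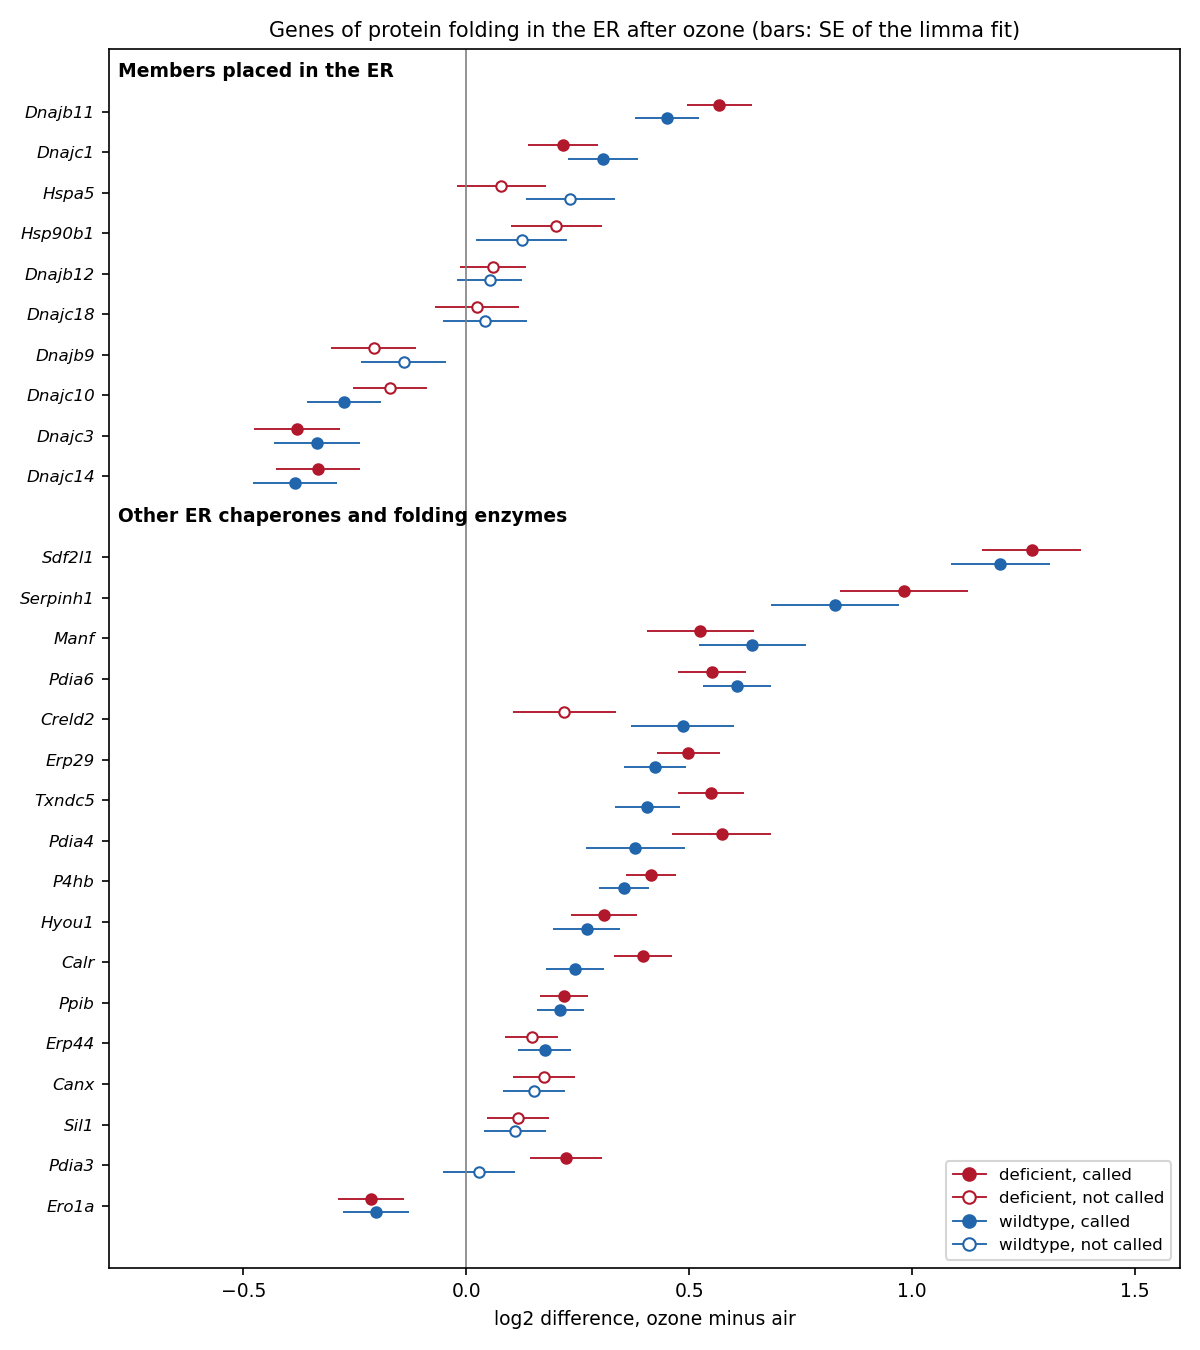
Log2 difference (ozone minus air, x axis) of the 10 members of the ER and of 17 other ER chaperones and folding enzymes, in deficient mice (red, upper point) and wildtype mice (blue, lower point), with SE bars and filled points for called genes. The other genes lie to the right of 0 apart from Ero1a, while the members spread from -0.38 to 0.57.

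In the cytosol, a list of 17 partner genes of Hsp70 and Hsp90, which also holds the small heat shock protein Cryab, gave 4 higher and 1 lower in deficient mice and 5 higher in wildtype mice, or 29.4% in each, against 30.3% and 36.7% of all genes. Stip1 (Hop), which links Hsp70 to Hsp90, was higher by 0.57 and 0.65, and Fkbp4, an Hsp90-binding immunophilin of steroid receptors, by 0.46 and 0.57. Of 8 subunits of the cytosolic chaperonin, 3 were higher in each genotype, led by Cct3 (0.49 and 0.51), or 37.5% beside the same shares of all genes. Of the heat shock factors and their binding protein, 0 of 3 genes (Hsf2, Hsf4 and Hsbp1, the binding protein) were called in either genotype by limma. Of these, 1 was under an unadjusted p of 0.05 in each genotype, and the shares of all genes called were again 30.3% and 36.7%. Hsf2 was dim, at 3.99 to 4.25 over the arrays, and Hsf1, the gene of heat shock factor 1, was not analysed here.

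In mitochondria, 1 of 7 members rose and 1 fell in deficient and wildtype mice alike, against 30.3% and 36.7% of all genes called. Hspd1 (Hsp60), the barrel of the mitochondrial chaperonin, had 10.81, 11.10, 10.95 and 10.99 in deficient mice after ozone, against 10.53, 10.78, 10.53 and 10.64 after air. Hspd1 in wildtype mice had 10.99, 10.88, 11.17 and 10.80 after ozone, against 10.63, 10.67, 10.56 and 10.60 after air. The exposures did not overlap, and the difference was 0.34 ± 0.09 in deficient mice (adjusted p = 0.00660) and 0.34 ± 0.09 in wildtype mice (adjusted p = 0.00608). No alternative took away either call of Hspd1 at the threshold of 0.05.

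Hspe1 (Hsp10), the lid of the same chaperonin, had 10.23, 10.50, 10.50 and 10.70 in deficient mice after ozone, against 10.33, 10.46, 10.35 and 10.43 after air. Hspe1 in wildtype mice had 10.38, 10.26, 10.71 and 10.38 after ozone, against 10.15, 10.31, 10.21 and 10.45 after air. The exposures overlapped, and the differences were 0.09 ± 0.09 (adjusted p = 0.505) and 0.15 ± 0.09 (adjusted p = 0.221). Its other probe set, which was not used in the counts, gave 0.50 ± 0.10 in deficient mice (adjusted p = 0.00181) and 0.53 ± 0.10 in wildtype mice (adjusted p = 0.000910) when every probe set was tested on its own.

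Hspa9 (mortalin), the mitochondrial Hsp70 that pulls proteins through the inner membrane, had 9.38, 9.56, 9.39 and 9.48 in deficient mice after ozone, against 9.42, 9.59, 9.49 and 9.61 after air. Hspa9 in wildtype mice had 9.28, 9.50, 9.44 and 9.50 after ozone, against 9.42, 9.39, 9.53 and 9.47 after air. Its J protein partner Dnaja3 had 8.45, 8.51, 8.55 and 8.64 in deficient mice after ozone, against 8.46, 8.66, 8.54 and 8.39 after air. Neither gene was called by its brightest probe set: Hspa9 differed by -0.08 ± 0.07 and -0.03 ± 0.07, and Dnaja3 by 0.03 ± 0.08 and 0.01 ± 0.08. In wildtype mice Dnaja3 had 8.38, 8.49, 8.60 and 8.49 after ozone, against 8.40, 8.37, 8.45 and 8.68 after air. Tested on their own, 1 of the 3 probe sets of Dnaja3 was called higher in deficient mice (0.48) and 0 in wildtype mice. With its probe sets averaged, Dnaja3 was called higher in deficient mice (0.18, limma adjusted p = 0.00976).

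Dnajc30, a J protein of the inner membrane that works with ATP synthase and complex I, had 9.02, 9.01, 9.04 and 8.87 in deficient mice after ozone, against 9.14, 9.11, 9.38 and 9.12 after air. Dnajc30 in wildtype mice had 8.94, 8.94, 8.92 and 8.96 after ozone, against 9.06, 9.06, 9.25 and 9.26 after air. The exposures did not overlap, and the differences were -0.21 ± 0.07 (adjusted p = 0.0340) and -0.22 ± 0.07 (adjusted p = 0.0228). Both values lost their call without deficient air M1 or F1 or deficient ozone F1 or F2 in deficient mice (-0.22 to -0.15), and without wildtype air F1 or F2 or wildtype ozone F1 in wildtype mice (-0.20 to -0.19). Of 9 other mitochondrial chaperones and proteases, 3 were higher and 3 lower in deficient mice and 4 higher and 3 lower in wildtype mice. The shares of all genes called were 30.3% and 36.7%.

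Of the 8 remaining members, Dnajc28, whose function in mice is little known, had 6.44, 6.29, 6.47 and 6.25 in deficient mice after ozone, against 6.94, 6.76, 6.93 and 6.58 after air. Dnajc28 in wildtype mice had 6.45, 6.12, 6.25 and 6.26 after ozone, against 6.54, 6.75, 6.79 and 6.67 after air. It fell by 0.44 ± 0.09 in deficient mice (adjusted p = 0.00242) and by 0.42 ± 0.09 in wildtype mice (adjusted p = 0.00320), without overlap. Dnajc4, a small J protein of little known function, had 8.56, 8.72, 8.70 and 8.74 in deficient mice after ozone, against 8.66, 8.56, 8.62 and 8.67 after air (0.05 ± 0.06, adjusted p = 0.515). In wildtype mice Dnajc4 had 8.70, 8.59, 8.75 and 8.85 after ozone, against 8.56, 8.42, 8.61 and 8.56 after air (0.18 ± 0.06, adjusted p = 0.0207), a call lost without wildtype air M2, wildtype ozone M1 or wildtype ozone F2 (0.15 to 0.18).

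Hspb11 had 8.29, 8.13, 8.28 and 7.96 in deficient mice after ozone, against 8.38, 8.34, 8.41 and 8.40 after air (-0.22 ± 0.11, adjusted p = 0.165). Hspb11 in wildtype mice had 7.82, 7.72, 7.98 and 8.27 after ozone, against 8.15, 8.33, 8.04 and 8.46 after air (-0.30 ± 0.11, adjusted p = 0.0491). The wildtype call stood just under the threshold and was lost when any of 12 of the 16 arrays was left out, the exceptions being wildtype air F1, wildtype ozone F2, deficient ozone M1 and deficient ozone F2 (adjusted p up to 0.149). Means of 3 markers of ciliated cells lay between 7.99 and 8.78 over all arrays, and 0 of the 3 were called in either genotype by limma (0 at an unadjusted p under 0.05).

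**Figure D4:**
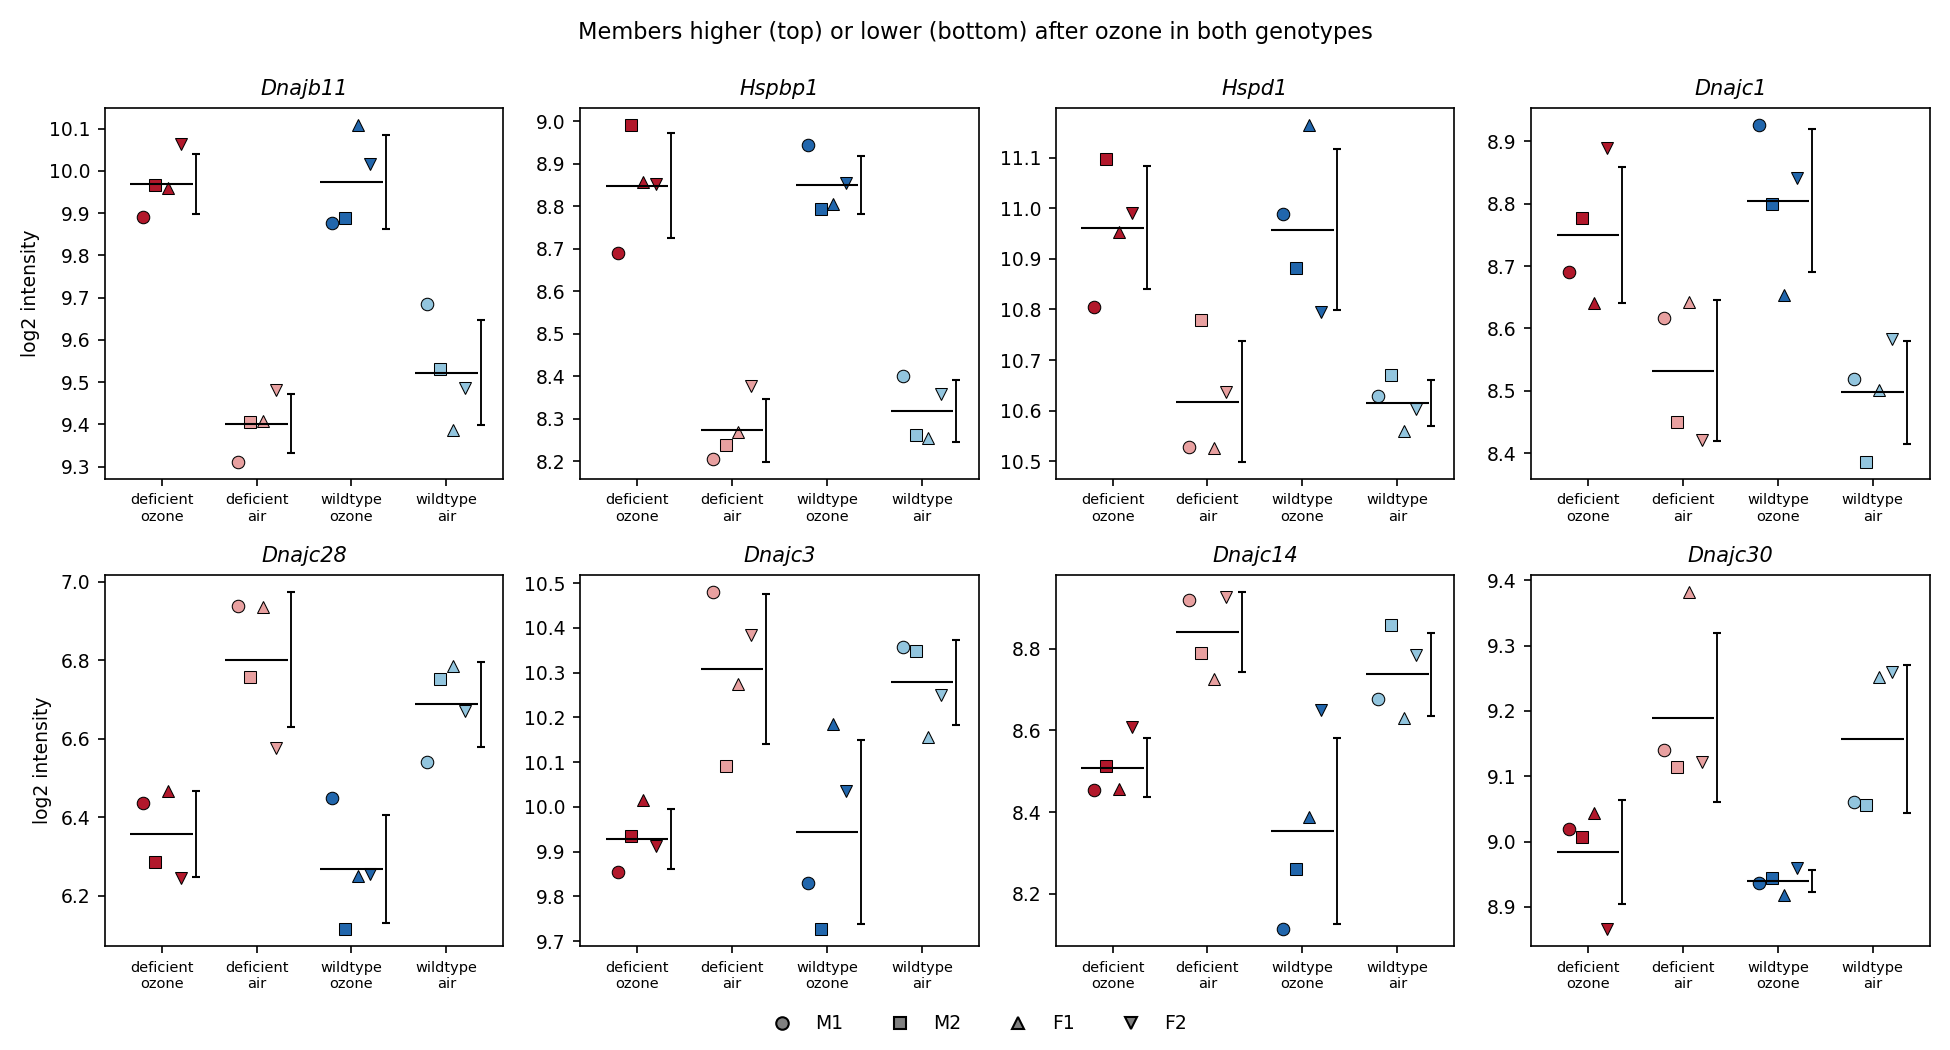
Log2 intensity (y axis) of 8 of the 9 members called in both genotypes, 4 higher (top row) and 4 lower (bottom row), on each of the 16 arrays by group, with a line at the group mean and a bar of ± 1 SD (n = 4). Ozone arrays of Dnajb11, Hspbp1, Hspd1, Dnajc28 and Dnajc30 do not overlap the air arrays of the same genotype.

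Promoter sequences from RefSeq (250 bases before to 50 after each annotated start, GRCm38.p6) were available for 51 of the 62 members and were searched on both strands. The heat shock element was taken as 3 units in a row, GAANNTTCNNGAA or TTCNNGAANNTTC, which overlap each other in longer runs. It was found in 4 of the 51 members with a promoter (7.84%), Dnajb6, Hspd1, Hspe1 and Hsph1, and in 179 of all 27025 genes (0.662%). Hspd1 and Hspe1 lie head to head on chromosome 1 (chr1:55077833-55088243 and chr1:55088148-55091317) and hold the same element, shown once here because 1 of the pair was called in both genotypes while the other depended on the probe set. Capitals mark the element.
Hspe1, chr1:55088019-55088116, plus strand, -129 to -32 from the start: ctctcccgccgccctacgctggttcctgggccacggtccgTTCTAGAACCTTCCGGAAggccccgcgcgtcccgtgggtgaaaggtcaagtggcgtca
Dnajb6, chr5:29735812-29735897, plus strand, -86 to -1 from the start: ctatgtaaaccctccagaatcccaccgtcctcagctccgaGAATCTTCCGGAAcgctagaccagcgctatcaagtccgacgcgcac
Hsph1, chr5:149636280-149636308, minus strand, 7 to 35 from the start: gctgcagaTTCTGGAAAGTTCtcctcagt

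The members holding the element differed in their calls: Hspd1 was called higher in both genotypes, and the brightest probe set of Dnajb6 lower in wildtype mice. The probe sets used for Hsph1 and Hspe1 were not called. With all probe sets of a gene averaged, Hspe1 was called higher in both genotypes and Hsph1 in wildtype mice. No match was found in the windows of Hspa1a or Hspa1b, which says only that these letters are not in those windows.

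The ER stress element, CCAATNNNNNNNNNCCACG, is the site through which Atf6 and nuclear factor Y act on ER chaperone genes. It was found in 3 of the 51 members (5.88%), Hspa5, Hsp90b1 and Dnajc3, and in 37 of 27025 genes (0.137%). These are shown because all are ER members. By its brightest probe set over all arrays none was called higher after ozone, though Hspa5 was called in wildtype mice under some alternatives given above. Dnajb11, the ER member that rose most, holds no match, which says only that these letters are not in its window. Whether Atf6 acted on any of these genes was not tested. Capitals mark the element.
Hspa5, chr2:34771985-34772083, plus strand, -105 to -7 from the start: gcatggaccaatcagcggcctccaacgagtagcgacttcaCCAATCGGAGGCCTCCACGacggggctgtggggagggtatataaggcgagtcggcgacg
Hsp90b1, chr10:86705493-86705694, minus strand, -250 to -49 from the start, with 1 match on each strand: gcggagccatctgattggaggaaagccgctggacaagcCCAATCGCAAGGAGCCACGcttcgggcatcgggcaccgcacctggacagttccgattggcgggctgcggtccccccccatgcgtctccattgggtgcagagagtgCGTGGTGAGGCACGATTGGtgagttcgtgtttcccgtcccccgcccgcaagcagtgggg
Dnajc3, chr14:118937787-118937885, plus strand, -145 to -47 from the start: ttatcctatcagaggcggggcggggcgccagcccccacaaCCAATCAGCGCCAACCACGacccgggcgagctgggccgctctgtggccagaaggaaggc

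Probe sets of a gene can read different ends or forms of its transcript, and 37 members had more than 1. When each probe set was tested on its own, the 3 probe sets of Hspa1b gave 1.05 to 1.24 in deficient mice and 1.34 to 1.78 in wildtype mice, with 2 called in wildtype mice. The other probe set of Hsph1 gave 0.73 ± 0.38 in deficient mice and 1.25 ± 0.38 in wildtype mice, the second called (adjusted p = 0.0175). For Hspb8 the other 2 gave 0.43 and -0.04 in deficient mice and 0.61 and 0.20 in wildtype mice, with all but the -0.04 called. With its probe sets averaged, Hspb8 was called higher in wildtype mice and not in deficient mice.

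Hspb7, a small heat shock protein of heart and muscle, had a brightest probe set at -0.52 ± 0.28 in deficient mice and -0.47 ± 0.28 in wildtype mice, not called, while its other 2 probe sets were at -1.69 and -1.35 in deficient mice and at -1.51 and -0.99 in wildtype mice, all called. Means of 7 markers of the cardiac muscle in pulmonary veins lay between 9.77 and 11.5 over the arrays, and 0 of the 7 were called in either genotype by limma (2 in deficient and 0 in wildtype mice at an unadjusted p under 0.05). Their part in the Hspb7 difference was not tested. Hsp90b1 had a second probe set that fell by 0.38 ± 0.14 in deficient mice and by 0.56 ± 0.14 in wildtype mice, both called, while its brightest was at 0.20 and 0.12, not called. In wildtype mice Dnajc14 and Dnajc2 each had 1 probe set called higher and 1 called lower, so that no direction for these genes can be taken from the brightest alone. Probe sets of Dnajc10 and of Dnajb6 also lay on both sides of 0 in each genotype. The 5 probe sets of Dnajc3 ran from -0.38 to 0.19 in deficient mice and from -0.38 to 0.10 in wildtype mice, with 1 and 2 called, all lower.

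**Figure D5:**
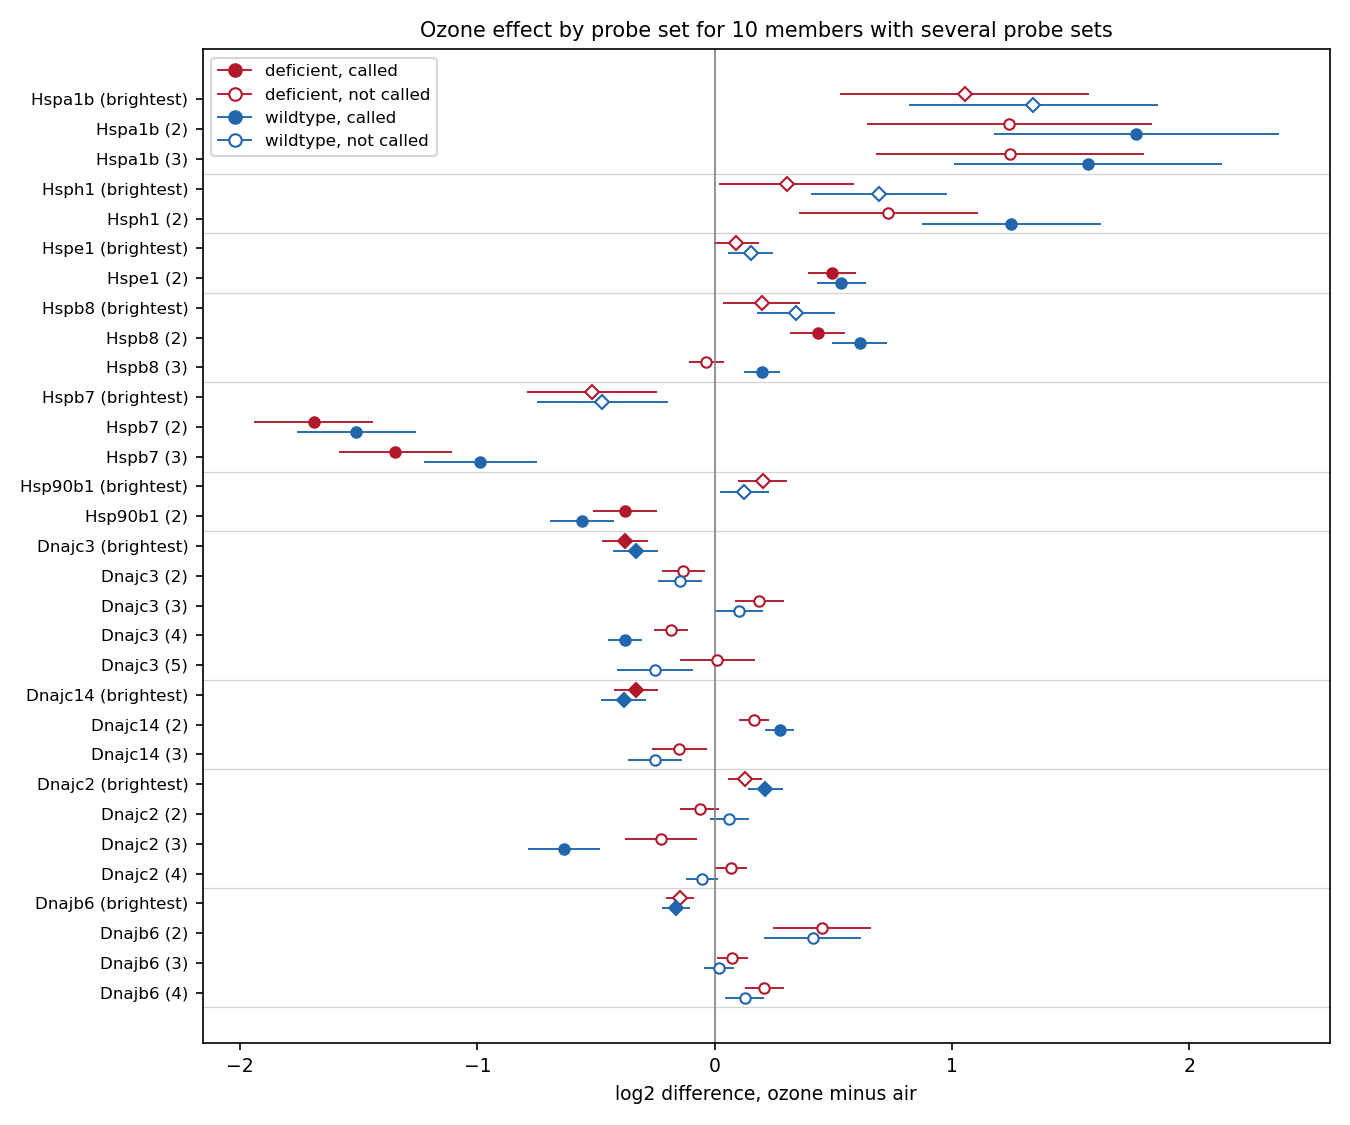
Log2 difference (ozone minus air, x axis) for each probe set of 10 members, the brightest as a diamond and the others as circles, in deficient mice (red, upper point) and wildtype mice (blue, lower point), with SE bars and filled symbols for called probe sets. Probe sets of Hspb7 and Hspa1b share a direction, while those of Hsp90b1, Dnajc3, Dnajc14, Dnajc2 and Dnajb6 lie on both sides of 0.

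Genotype changed no member at the threshold. In air 0 of 62 members were called by limma, with 1 under an unadjusted p of 0.05, against 0.00807% of all genes. In ozone 0 of 62 were called, with 3 under an unadjusted p of 0.05, against 0.0161% of all genes. The difference of the ozone effects, deficient minus wildtype, was called for 0 of 62, with 1 under an unadjusted p of 0.05, and for 0 of all genes. Members lay between -0.37 and 0.26 for deficient minus wildtype in air and between -0.52 and 0.22 in ozone.

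The lowest p in ozone belonged to Hspb8, at 9.13 ± 0.24 in deficient mice and 9.65 ± 0.10 in wildtype mice (SD, n = 4 each), without overlap, a difference of -0.52 ± 0.16 (limma adjusted p = 0.280). In ozone Dnajc9 was at 8.87 ± 0.10 in deficient mice and 8.67 ± 0.08 in wildtype mice (0.19 ± 0.07, limma adjusted p = 0.333). Hspa1b differed by -0.16 ± 0.53 between the genotypes in ozone and by 0.13 ± 0.53 in air, an SE larger than either value. In air the lowest p values were those of Hspb8 (-0.37 ± 0.16, limma adjusted p = 0.818) and Hspb3 (0.26 ± 0.13, limma adjusted p = 0.827). For the difference of the ozone effects they were those of Hspb3 (-0.42 ± 0.18) and Dnajc4 (-0.13 ± 0.08), both at a limma adjusted p of 0.983. These values moved with single arrays: in air, Hspb8 was at -0.57 without deficient air M2 and at -0.23 without deficient air F1. Without deficient air M2, Hspb3 was at 0.10 in air and at -0.26 for the difference of the ozone effects, none called.

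Sex was a term of the fit, and 1 of 62 members was called for it, against 5.66% of all genes. Dnaja2, a cytosolic J protein that supports refolding by Hsc70, was at 9.29 ± 0.12 in males and 9.04 ± 0.15 in females (SD, n = 8 each), higher in males by 0.25 ± 0.06 (limma adjusted p = 0.0231). In males it had 9.25 and 9.22 in deficient mice after ozone, 9.40 and 9.46 in deficient mice after air, 9.13 and 9.18 in wildtype mice after ozone and 9.36 and 9.36 in wildtype mice after air. In females it had 8.93 and 8.83, 8.85 and 9.15, 9.15 and 9.07, and 9.12 and 9.24 in the same groups. Every deficient male stood above every deficient female, while males and females of the wildtype ozone group overlapped. The call was lost without the 3 air arrays (0.24, adjusted p = 0.0682). Hspa5 and Hsp90b1 were each lower in males by 0.20 ± 0.07, at limma adjusted p of 0.113 and 0.116, and were not called.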

How the data were processed

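Left lung RNA of 16 mice was measured on 16 arrays, in 4 groups of 4. The authors deposited 1 table of intensity values for 22690 probe sets, made with RMA per the submitters' processing notes; no software or version is named in the labels. The deposited intensities are on a linear scale (11.1 to 26975), so log2 was taken with no further normalization. Of the probe sets, 64 are controls, and 20380 have 1 gene symbol in the platform annotation, 691 several and 1555 none. The brightest of each gene was fitted with limma 3.58.1 (R 4.3.3), with 4 groups and sex as terms over all 16 arrays; the adjusted p values of the report are from this limma fit. The fit was tested on simulated data. Adipoq was compared by an exact permutation test (scipy 1.17.1, Python 3.11.15).

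The members and lists were chosen with earlier results of these data known. Values of every array are given for fixed genes, for up to 6 called members with the largest rises and falls in each ozone comparison, and for those of smallest p for genotype and sex. Separate mice are taken from the labels, and p values measure the spread between these arrays, whose number limits the precision. The alternatives were another scaling, filter, probe set rule, threshold or model, and each array left out in turn. The choice of 3 air arrays to leave out was made after seeing the data.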

Additional observations from a re-analysis of the deposited data

Results flagged for a closer look

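In 5 of 128 groups of 4 arrays, 1 array stood farther from the other 3 than the critical value of Dixon's test allows, and chance gives this in about 1 in 20 groups. Hspb3 was at 5.93 on deficient air M2, against 5.30 to 5.33 on the other deficient air arrays. Dnajc30 was at 9.38 on deficient air F1, against 9.11 to 9.14. Dnajb3 was at 4.74 on deficient ozone F2, against 4.28 to 4.33. Hsp90aa1 was at 12.33 on wildtype air M2, against 11.86 to 11.92, and Hspa1a was at 6.92 on wildtype air F1, against 7.52 to 7.60. Deficient air M2 is also the array with the skeletal muscle and squamous markers, whose part in the Hspb3 value was not tested.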

How the results depend on the processing

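At an adjusted p under 0.01, 6 members were called in deficient mice, 6 in wildtype mice and 0 for sex. The ozone counts were 9.68% of members each, against 18.9% and 22.1% of all genes. Leaving out each array in turn gave 9 to 18 in deficient mice, 10 to 22 in wildtype mice and 1 to 2 for sex. For sex, averaging all probe sets gave 3, and leaving out the 3 air arrays, with or without deficient ozone F2, gave 0. Leaving out deficient air M2 gave the highest count in both ozone comparisons (18 and 22), and leaving out wildtype ozone M1 the lowest in wildtype mice (10). Leaving out the 3 air arrays and deficient ozone F2 gave 8 in deficient mice (6 higher, 2 lower) and 23 in wildtype mice (14 higher, 9 lower). Genotype and the difference of the ozone effects stayed at 0 under every alternative run. With the replicate numbers as a replicate block the counts were 10 (5 higher, 5 lower) and 14 (9 higher, 5 lower), and 13 and 13 for the ER list, and the calls of Dnajc1 in deficient mice (0.22, adjusted p = 0.0522) and Hspb11 in wildtype mice (-0.30, adjusted p = 0.0640) were not made. Over 24 pairs of equal number the correlation of deviations ran from -0.04 to 0.35, with 18 over 0.1, among them every pair of M1 arrays and every pair of F1 arrays, and 9 of 16 arrays were closest to their own number. Equal numbers also share a sex, and since 0.1 was not passed by every pair, the numbers were not taken to pair the mice. Over 71 results for single members, 1906 alternatives left 1753 on the same side of the threshold, ended 81 calls, added 57 and turned the sign of 15 uncalled values, and 0 called values changed sign. The cause was not tested. Calls of Hspbp1, Dnajb11, Hspd1 and Dnajc28 held under all alternatives in both genotypes.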
